A study of Danio rerio with 25 samples.

Results

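The zebrafish cartilage genes sox9a (ENSDARG00000003293), sox9b (ENSDARG00000043923) and col2a1a (ENSDARG00000069093) were followed across 25 RNA-seq libraries of whole larvae. These 3 genes were taken by identifier from the 32520 genes of the deposited count tables, and all 3 passed the filter on low counts in both tables (21750 genes tested in the DEX table and 23222 in the crispant table). The first table held 15 libraries of a dexamethasone (DEX) course, with 3 libraries (a, b and c) on each of 5 days, D3 to D7. DEX is a synthetic glucocorticoid, and the larvae carried the Tg(Ola.Sp7:nlsGFP) reporter, in which a medaka Sp7 promoter drives nuclear GFP in bone-forming cells, and were kept in 10 µM DEX over the course. The labels count these days from DEX and the study's methods count them from fertilization. The second table held 5 libraries of cdkn1a crispants, which are F0 mosaic larvae grown from one-cell embryos injected with Cas9 protein and a pool of 4 sgRNAs to exon 2 of cdkn1a, and 5 libraries of WT larvae. For the crispant and WT samples the study's methods give only a range of ages, 3 to 7 days after fertilization, shared with the DEX samples. Which age each of these libraries had, its strain and its pooling are not given in the sources used here.

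Sox9 is a transcription factor of the SoxE family that cartilage cells need to form and to switch on their matrix genes. Zebrafish carry duplicate copies of the gene, sox9a and sox9b, and both are expressed in developing cartilage, with further expression in tissues such as the otic vesicle, fins, retina and brain glia. col2a1a encodes the alpha 1 chain of type II collagen, the main fibril of the cartilage matrix and a known direct target of Sox9 in the mouse, and it is also expressed in the notochord sheath. In whole larvae, fewer cells of a type and less RNA per cell cannot be told apart. No vehicle-treated library of the same days was analysed here, so exposure and normal larval growth also cannot be told apart over the DEX course.

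Total counts were 13685297 to 21812411 per library in the DEX table and 30330699 to 38467088 in the crispant table. In the DEX course, libraries with the same letter deviated from their day means together (mean r between libraries of different days, over all genes tested, 0.558 for c, 0.368 for a and 0.341 for b). The crispant table fell into 2 sets along its first principal component, which held 38.2% of the variance. The first set had 3 crispant and 3 WT libraries and the second had 2 of each, and the names of the crispant columns start again at the second set. These sets are known from the values and, for the crispants, from the numbering, not from a stated batch. The WT columns are numbered without a break, so their placing rests on the first principal component alone. The labels do not say whether libraries of a group came from separate clutches, so p-values measure the spread between these libraries.

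The type II collagen gene col2a1a was 12.6-fold lower on D7 than on D3, sox9a was 1.89-fold lower, and the lower level of sox9b passed the test only in some of the fits. Levels are given as CPM, a library's counts divided by its total after TMM scaling, which sets libraries to a common size. For col2a1a the D3 libraries a, b and c had 1925, 1959.7 and 3047 CPM, the D4 libraries 1419.5, 935 and 3863 CPM, the D5 libraries 795, 1047 and 982 CPM, the D6 libraries 457, 503 and 78.8 CPM, and the D7 libraries 168, 175 and 205 CPM. Its day means were 2311 ± 638 CPM (D3), 2073 ± 1569.7 CPM (D4), 941 ± 131 CPM (D5), 346 ± 233 CPM (D6) and 183 ± 19.8 CPM (D7), as mean ± SD with n = 3 each. D5 to D7 lay below every D3 library, D4c was the highest of the course, and D6c was below every D7 library.

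For sox9a the D3 libraries a, b and c had 41.8, 40.5 and 28.0 CPM, the D4 libraries 35.9, 31.4 and 32.9 CPM, the D5 libraries 25.6, 29.8 and 27.1 CPM, the D6 libraries 22.5, 31.6 and 22.4 CPM, and the D7 libraries 20.5, 24.4 and 13.5 CPM. Its mean was lower on each day than on the day before, and no D7 library reached the lowest D3 library. For sox9b the D3 libraries had 41.1, 46.4 and 45.8 CPM, the D4 libraries 37.9, 31.2 and 57.5 CPM, the D5 libraries 40.8, 37.4 and 50.8 CPM, the D6 libraries 31.3, 31.8 and 52.7 CPM, and the D7 libraries 23.2, 21.1 and 37.5 CPM. On D4 to D7 the c library was the highest of its day for sox9b, and on D3, D6 and D7 the c library was the lowest of its day for sox9a.

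**Figure D1:**
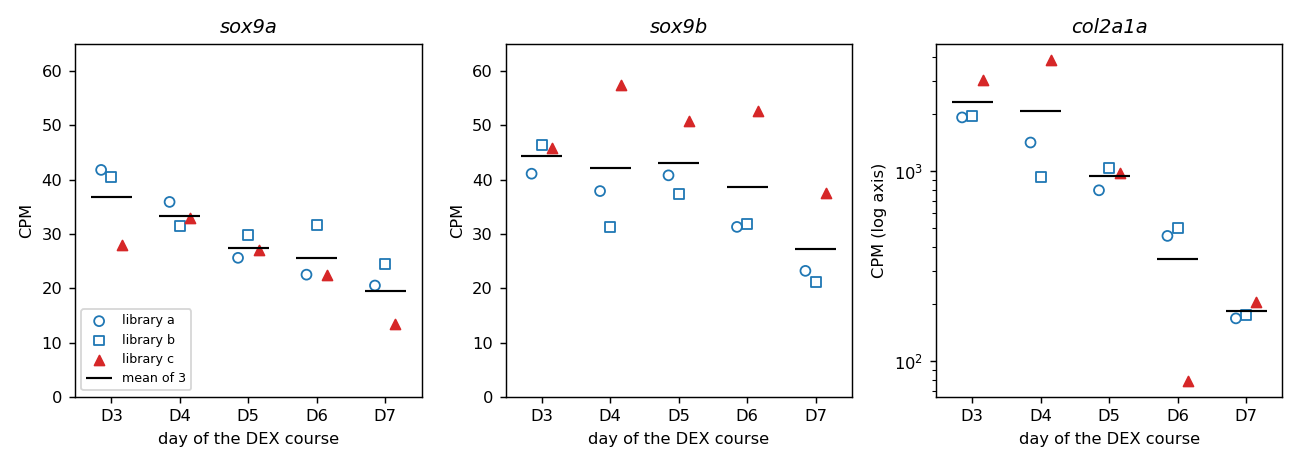
CPM of sox9a, sox9b and col2a1a in each of the 15 DEX libraries by day, with open circles for a, open squares for b, filled triangles for c and a line at the mean of 3. The axis of col2a1a is logarithmic. The col2a1a means run from 2311 CPM on D3 down to 183 CPM on D7, and the c triangles sit above the other sox9b points from D4 on.

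D7 was set against D3 in a model of all 5 days with the edgeR quasi-likelihood test, with p-values adjusted by Benjamini-Hochberg over all genes tested and called below 0.05. Of the 3 genes, 2 were called lower, where 13.5% of all genes tested were called lower and 11.8% higher. col2a1a had a log2 fold change of -3.66 (SE 0.63, adjusted p = 0.00109, edgeR), which was the 72nd lowest of 21750, so that 0.331% of genes were as low. sox9a had a log2 fold change of -0.92 (SE 0.23, adjusted p = 0.0117, edgeR), and 13.6% of genes were as low. sox9b had -0.71 (SE 0.29, adjusted p = 0.0897, edgeR) and was not called. With the library letter as a block in the same model, all 3 genes were called lower, sox9b with -0.76 (SE 0.18, adjusted p = 0.0049, edgeR), where 18.9% of all genes tested were called lower. For all 3 genes every D7 library was below every D3 library, a pattern that 21.9% of all genes tested showed.

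The sox9b call thus depended on the block, and it also changed with the c libraries. In libraries a and b alone, all 3 genes were called lower on D7, where 23.7% of the genes tested were called lower. sox9b then had a log2 fold change of -0.94 (SE 0.15, adjusted p = 0.000176, edgeR), sox9a -0.83 (adjusted p = 0.00126) and col2a1a -3.45 (adjusted p = 6.18e-08). Leaving out D7c alone gave -0.95 for sox9b (adjusted p = 0.0227, edgeR) and -0.66 for sox9a (adjusted p = 0.0487). That fit called 5457 of 22065 genes in either direction.

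A straight line through all 15 libraries gave the change per day. Of the 3 genes, 2 had a falling trend by the edgeR quasi-likelihood test, as did 18.1% of all genes tested. col2a1a fell by 1.01 on the log2 scale per day (SE 0.14, adjusted p = 4.75e-05, edgeR), the 56th lowest slope of 21750 genes, and sox9a fell by 0.22 per day (SE 0.05, adjusted p = 0.0022). sox9b had a slope of -0.15 per day (SE 0.06, adjusted p = 0.0815, edgeR), which was called with the letter as a block (-0.16, SE 0.05, adjusted p = 0.00885, where 22.3% of genes had a falling trend), in libraries a and b alone (-0.20, adjusted p = 0.00378, where 22.6% of genes had a falling trend) and without D6c (-0.17, adjusted p = 0.0269). The fit without D6c called a trend in either direction for 7848 of 22050 genes.

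Between neighbouring days, 0 of 12 tests on the 3 genes were called by edgeR, 1 had an unadjusted p under 0.05 and DESeq2 called 0. Few genes of the table were called in these steps either (0.189% for D4 against D3, 0.0092% for D5 against D4, and 0% for D6 against D5 and for D7 against D6). The largest differences of col2a1a were -1.44 for D6 against D5 (SE 0.58, adjusted p = 0.74, edgeR) and -1.14 for D5 against D4 (SE 0.58, adjusted p = 0.824, edgeR). With libraries a and b alone, col2a1a was called lower in 3 of the 4 steps, with -0.67 for D4 against D3 (adjusted p = 0.0466, edgeR), -0.94 for D6 against D5 (adjusted p = 0.036) and -1.48 for D7 against D6 (adjusted p = 0.00385), where 8.09%, 1.76% and 1.48% of the genes tested were called lower in the same steps. D4c and D6c were the highest and the lowest library of the course for col2a1a, and both are left out of that fit.

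Each day was also set against the other 4 days pooled, the 2-class comparison that the study's methods describe. Pooling puts the differences among those 4 days into the spread. None of the 15 tests on the 3 genes was called by edgeR, while 5 had an unadjusted p under 0.05 and DESeq2 called 2. Of all genes tested, edgeR called 7.89% for D3 and 0.0598% for D7, and none for D4, D5 or D6. The 2 DESeq2 calls, col2a1a and sox9a, were on D7, where DESeq2 called 2028 of 20427 genes. On D7, col2a1a had a log2 fold change of -2.96 (SE 0.85, adjusted p = 0.0827, edgeR), sox9a -0.66 (SE 0.22, adjusted p = 0.108) and sox9b -0.63 (SE 0.23, adjusted p = 0.129). Without D6c, col2a1a (-3.05, adjusted p = 0.0148, edgeR) and sox9a (-0.68, adjusted p = 0.0443) were called on D7, and without D4c col2a1a was called on D3 (1.88, adjusted p = 0.0493). The fit without D6c called 2214 of 22050 genes on D7 (13 of 21750 with all libraries). The fit without D4c called 2835 of 22120 genes on D3 (1716 of 21750 with all libraries). In the model of all 5 days, edgeR called col2a1a on D3 (1.96, adjusted p = 0.00443), D4 (1.77, adjusted p = 0.0397) and D7 (-2.61, adjusted p = 0.00681). It also called sox9a on D7 (-0.65, adjusted p = 0.0404). Of 21750 genes, 4018, 509 and 2876 were called on D3, D4 and D7. Adding the letter as a block also called sox9a on D3 (0.49, adjusted p = 0.0222) and sox9b on D7 (-0.65, adjusted p = 0.00678), with 6522 and 4909 genes called. On D6, the model without the block did not call col2a1a by edgeR (-1.46, adjusted p = 0.15). DESeq2 called it there (-1.45, adjusted p = 0.023), with 1318 of 19141 genes called. So did edgeR in libraries a and b alone (-0.69, adjusted p = 0.0252), with 2698 of 21643 genes called.

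The remaining SoxE genes and the SoxD genes, whose products SOX5 and SOX6 work with SOX9 on cartilage enhancers in the mouse, had log2 fold changes of -1.84 to -0.65 for D7 over D3. The table of gene names often gives the human symbol to both zebrafish copies, so genes are named here as that table has them. Of 6 genes tested, 3 were called lower on D7 than on D3 by edgeR and none higher, with a median log2 fold change of -0.82 against 0.06 for all genes. The share of all genes called lower was 13.5%, and 18.9% with the letter as a block. SOX6 averaged 25.8 CPM on D7 and 50.1 CPM on D3 (log2 fold change -0.96, SE 0.21, adjusted p = 0.00521), sox13 averaged 15.1 and 26.0 CPM (-0.78, adjusted p = 0.00633), and SOX10, which is known from neural crest and myelinating cells, averaged 21.6 and 39.1 CPM (-0.86, adjusted p = 0.0238, edgeR). With the letter as a block 5 of the 6 were called, SOX5 (-0.74, adjusted p = 0.00161, edgeR) and the SOX8 gene ENSDARG00000037782 (-1.87, adjusted p = 0.0392) among them. The SOX10 call was lost when D3a, D3b, D7a or D7b was left out. SOX5 had 47.1 CPM on D7 and 79.2 on D3 (-0.75, adjusted p = 0.0948). The SOX8 genes ENSDARG00000037782 (-1.84, adjusted p = 0.0758) and ENSDARG00000105301 (-0.65, adjusted p = 0.279) stayed below 2 CPM on every day.

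The collagens that build cartilage fibrils with type II collagen fell with col2a1a. Type XI collagen forms mixed fibrils with type II, and type IX collagen sits on their surface. Of 9 genes tested, 8 were called lower on D7 than on D3 by edgeR, and the trend was called lower for 9 of 9. Among all genes tested these shares were 13.5% and 18.1%. Their log2 fold changes ran from -4.43 to -1.15, with a median of -3.22. COL11A1 averaged 69.8 CPM on D7 and 756 CPM on D3 (log2 fold change -3.44, SE 0.63, adjusted p = 0.00163, edgeR), COL9A2 averaged 75.4 and 679.9 CPM (-3.17, adjusted p = 0.000529), and col9a3 averaged 35.5 and 505 CPM (-3.83, adjusted p = 0.00138). The other type II collagen gene, COL2A1 (ENSDARG00000011407), averaged 96.2 CPM on D7 and 557 CPM on D3 (-2.53, SE 0.61, adjusted p = 0.00864, edgeR). How the counting treated reads that may match both genes of such a pair is not given in the sources used here, so a split between col2a1a and COL2A1, or between sox9a and sox9b, is uncertain. The gene that was not called, chosen for mention after its value was seen, was col27a1b, at 1.40 CPM on D7 and 3.12 CPM on D3 (-1.15, adjusted p = 0.0527), and it was called with the letter as a block (-1.09, adjusted p = 0.0208, edgeR).

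Among proteins of the cartilage matrix and of chondrocytes, 8 of 17 genes tested were called lower on D7 than on D3 and none higher by edgeR (median log2 fold change -1.69). Libraries a and b alone gave 13, and the letter as a block gave 11. Among all genes tested, 13.5% were called lower in the full fit, 23.7% in libraries a and b alone and 18.9% with the block. hapln1a, a link protein that ties proteoglycans to hyaluronan, averaged 14.0 CPM on D7 and 248 CPM on D3 (log2 fold change -4.15, SE 0.54, adjusted p = 0.000168, edgeR). The matrilins, which link collagen fibrils to other matrix proteins, include MATN1 and MATN4, which were both lower, with MATN1 at 55.6 CPM on D7 and 532 CPM on D3 (-3.26, adjusted p = 0.00127) and MATN4 at 90.4 and 559 CPM (-2.63, adjusted p = 0.00052). epyc, a small leucine-rich proteoglycan, had 25.7 CPM on D7 and 198 CPM on D3 (-2.94, adjusted p = 0.00195, edgeR).

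Genes of late cartilage maturation and of its perichondrium were more mixed, with 4 of 12 called lower and none higher by edgeR (median log2 fold change -0.76), and 7 called lower in libraries a and b alone. Leaving out D3a, D3b or D7b in turn gave 2, and the letter as a block gave 6. The share of all genes called lower was 13.5% in the full fit, 23.7% in libraries a and b alone and 18.9% with the block. COL10A1 (ENSDARG00000054753), the collagen of hypertrophic chondrocytes in mammals, averaged 37.2 CPM on D7 and 309.9 CPM on D3 (log2 fold change -3.06, SE 0.49, adjusted p = 0.000674, edgeR). FGFR3, which restrains chondrocyte proliferation in the mouse, averaged 44.4 CPM on D7 and 86.8 CPM on D3 (-0.97, adjusted p = 0.0198), and leaving out any one of D3a, D3b, D7a, D7b or D7c ended the call. The MEF2C genes ENSDARG00000009418 (-0.63, adjusted p = 0.143) and ENSDARG00000029764 (-0.22, adjusted p = 0.681), copies of a driver of hypertrophy in the mouse, were not called, and the first of them was called with the letter as a block (-0.64, adjusted p = 0.0166, edgeR).

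Of 10 genes whose products modify, fold or export procollagen, 7 were called lower on D7 than on D3 and none higher by edgeR (median log2 fold change -1.16). Among all genes tested, 13.5% were called lower. SERPINH1 (ENSDARG00000019949), a collagen chaperone also called Hsp47, averaged 29.0 CPM on D7 and 249 CPM on D3 (log2 fold change -3.10, SE 0.56, adjusted p = 0.00138, edgeR). P4HB, a subunit of the enzyme that hydroxylates collagen prolines, averaged 127 CPM on D7 and 226 CPM on D3 (-0.83, adjusted p = 0.0114), and the call was lost without D3a, D7a or D7b. The coat proteins that carry procollagen out of the endoplasmic reticulum were not called, with sec23a at 66.3 CPM on D7 and 68.4 CPM on D3 (-0.04, adjusted p = 0.919) and SEC24D at 41.9 and 49.0 CPM (-0.23, adjusted p = 0.655).

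**Figure D2:**
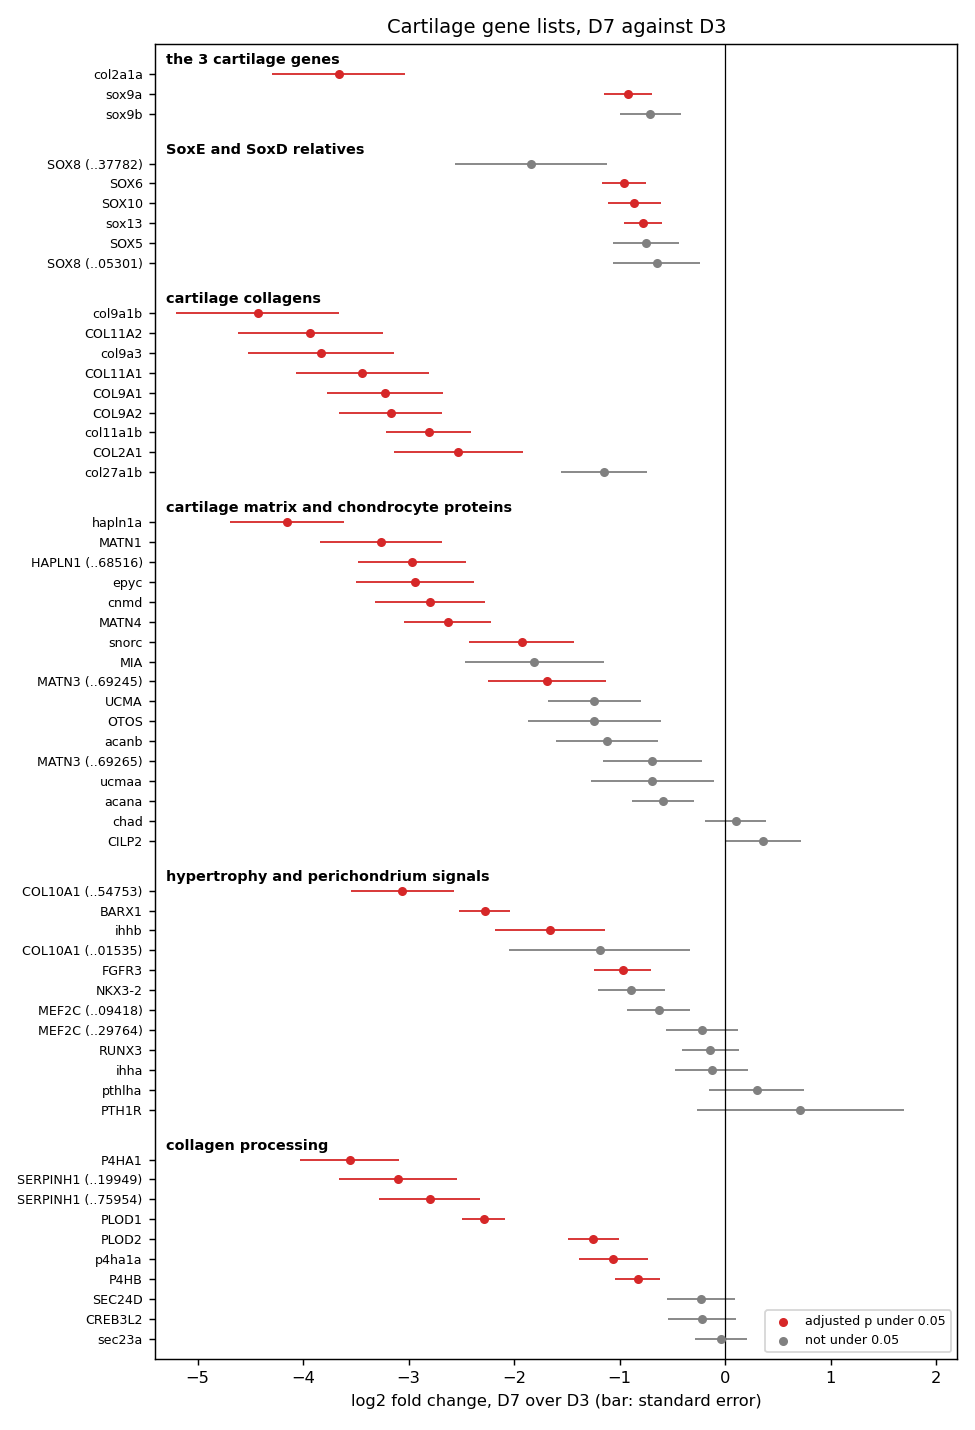
Log2 fold change of D7 over D3 with its standard error (bar) for the 3 cartilage genes and every tested gene of 5 cartilage lists, in red where the adjusted p of edgeR was under 0.05. Numbers after a symbol are the last digits of the identifier where the symbol names more than 1 gene. The collagens have a median of -3.22 and the SoxE and SoxD genes a median of -0.82.

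Markers of other cell types of the larva differed between D7 and D3 to varying degrees. Notochord markers summed to 91.3 to 117 CPM on D7 and 142 to 150 CPM on D3, and 3 of 6 were called lower by edgeR, while noto did not pass the filter (at most 12 counts in a library). The largest part of that sum was CAV1, at 75.1 CPM on D7 and 77.7 CPM on D3 (log2 fold change -0.05). The 3 called lower were col8a1a (-3.46), loxl5b (-2.71) and SHH (ENSDARG00000038867, -1.15). The list named shha, but the symbol SHH stands for more than 1 gene and each was counted. The other SHH gene, ENSDARG00000068567, was not called (-0.58, adjusted p = 0.0694, edgeR). Which of them is shha cannot be read from the symbol. Of the radial and Mueller glia markers, 1 of 9 was called lower and 2 higher, with sums of 1839.8 to 2839 CPM on D7 and 2099.7 to 2253 CPM on D3. None of 4 otic markers was called by edgeR on D7 against D3 (165 to 327 CPM on D7 and 122 to 234 CPM on D3). Osteoblast markers were lower for 4 of 6, with sums of 685 to 1126 CPM on D7 and 3212 to 4982 CPM on D3, and bglap was at 0 in all 15 libraries. Neural crest markers were lower for 1 of 4, which was SOX10, already counted among the SoxE genes. Fin fold and skin markers were lower for 1 of 3. The cartilage markers are 4 genes of the matrix list and COL9A1 of the collagen list, so they add no separate genes. They were lower for 3 of 5 and summed to 147 to 165 CPM on D7 and 977 to 1485 CPM on D3. With the letter as a block, 5 of 6 notochord, 4 of 4 neural crest and 3 of 3 fin fold and skin markers were called lower. The glia markers then gave 2 of 9 lower and 2 higher, and 1 of 4 otic markers was called higher. Of all genes tested, 13.5% were called lower and 11.8% higher without the block, and 18.9% were called lower with it. With the block, 7930 of 21750 genes were called in either direction, 4106 of them lower and the rest higher. The part of these tissues in the change of the 3 genes was not tested.

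The 5 genes whose log2 CPM followed col2a1a most closely over the 15 DEX libraries, out of 13949 candidates with a symbol and a mean of at least 5 CPM, were all cartilage collagens. Pearson's r was 0.998 for COL11A2, 0.996 for COL9A2, 0.992 for COL9A1, 0.988 for COL11A1 and 0.986 for col9a3. These are descriptions over libraries that share days, depth and the c libraries. In D6c, where col2a1a was at 3.41% of its D3 mean, the 5 collagens were at 2.18% to 7.35% of theirs, and in D4c, where col2a1a was at 167%, they were at 149.6% to 170.4%. The 5 genes were picked over these same libraries, D4c and D6c included, so their likeness there comes from the choice. In the 10 crispant and WT libraries, r with col2a1a was 0.837 to 0.97 for the same genes.

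**Figure D3:**
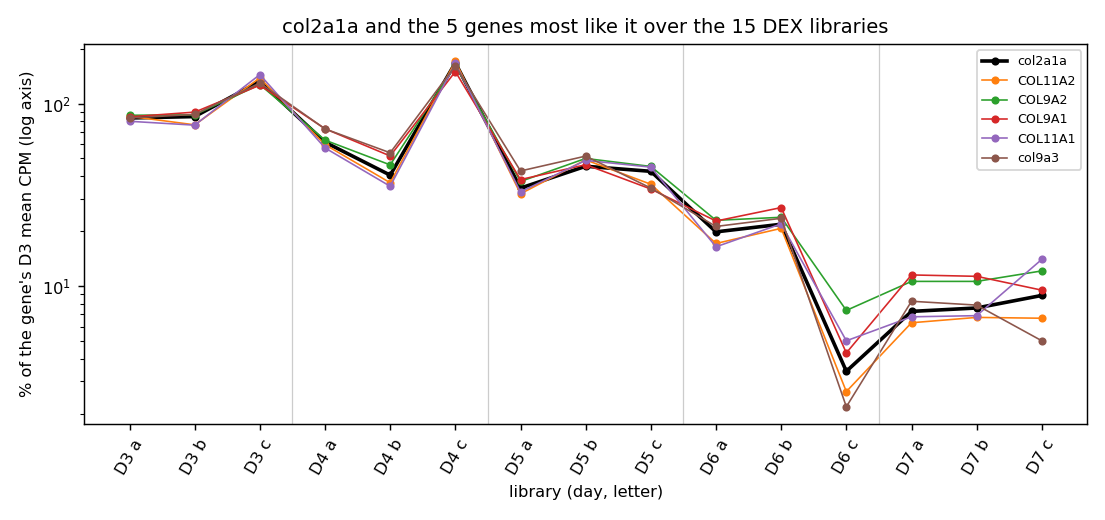
CPM of col2a1a (thick black line) and of the 5 genes most like it in each of the 15 DEX libraries, as a percent of each gene's own D3 mean, on a log axis. The lines run close together, with a peak in D4c (149.6% to 170.4% for the 5 collagens) and a low in D6c (2.18% to 7.35%).

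The genes most like the Sox9 copies were other genes, with no collagen among them. For sox9a they included GATAD1 (r = 0.941), PAPSS1 (0.936), which makes the sulfate donor used to sulfate proteoglycans, chl1b (0.929) and SLC1A3 (0.927), a glutamate transporter of glia. For sox9b they were TBC1D1 (0.96), ACTN1 (0.954), ZDHHC13 (0.954), FN1 (0.953), which encodes fibronectin, and tuba5 (0.946). None of the sox9a neighbours stayed among the closest 5 when libraries a and b were used alone, none of the sox9b neighbours did, and 3 of the 5 col2a1a neighbours did. In the 10 crispant and WT libraries, r with sox9a was -0.32 to 0.967 for its 4 neighbours named above and r with sox9b was -0.527 to 0.83 for its own. Among the 3 genes themselves, r over 15 DEX libraries was 0.72 between sox9a and col2a1a, 0.492 between sox9b and col2a1a and 0.279 between sox9a and sox9b. In the 10 a and b libraries the same pairs, in the same order, had r of 0.875, 0.936 and 0.732, and in the 10 crispant and WT libraries 0.356, 0.428 and 0.472.

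The ratio of sox9a to sox9b within a library does not depend on the scaling of that library, apart from the small prior count. Since gene lengths enter it, only differences between libraries can be read. Over the DEX course the log2 ratio averaged -0.29 ± 0.37 (D3), -0.29 ± 0.45 (D4), -0.63 ± 0.29 (D5), -0.57 ± 0.62 (D6) and -0.48 ± 0.88 (D7), as mean ± SD with n = 3 each. D7 and D3 differed by -0.18, less than the spread within either day, and with 3 against 3 an exact test cannot go below p = 0.10. The c libraries had the lowest ratio of every day, averaging -1.02 ± 0.32 (n = 5) against -0.17 ± 0.26 in the a and b libraries (n = 10), and from D3c to D7c the ratio was -0.71, -0.80, -0.90, -1.23 and -1.46.

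The second table asks whether editing of cdkn1a, a cyclin-dependent kinase inhibitor, goes with a change of these genes. cdkn1a itself was at 8.34 to 10.1 CPM in crispants and 17.6 to 21.9 CPM in WT of the first set, and at 1.66 to 1.67 CPM in crispants and 3.63 to 4.58 CPM in WT of the second set. It was lower in crispants within each set, and the 2 sets differed more than the groups did. Edits in exon 2 need not lower the RNA, so these counts do not measure editing.

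sox9a had 14.2, 18.9 and 16.7 CPM in the first-set crispants, against 22.8, 23.2 and 17.3 CPM in the first-set WT, and 30.1 and 32.2 CPM in the second-set crispants, against 28.6 and 28.3 CPM in the second-set WT. sox9b had 16.1, 15.4 and 18.9 CPM in first-set crispants, against 15.2, 12.5 and 15.4 CPM in first-set WT, and 25.1 and 23.7 CPM in second-set crispants, against 18.0 and 15.9 CPM in second-set WT. col2a1a had 577, 576 and 582 CPM in first-set crispants, against 708, 681 and 701 CPM in first-set WT, and 749 and 918 CPM in second-set crispants, against 521 and 536 CPM in second-set WT. For col2a1a the groups did not overlap within either set but lay in opposite orders, and for sox9a they overlapped in the first set. Of all genes tested, 39.7% had groups that did not overlap in the first set, and 45.7% had such groups in the second.

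**Figure D4:**
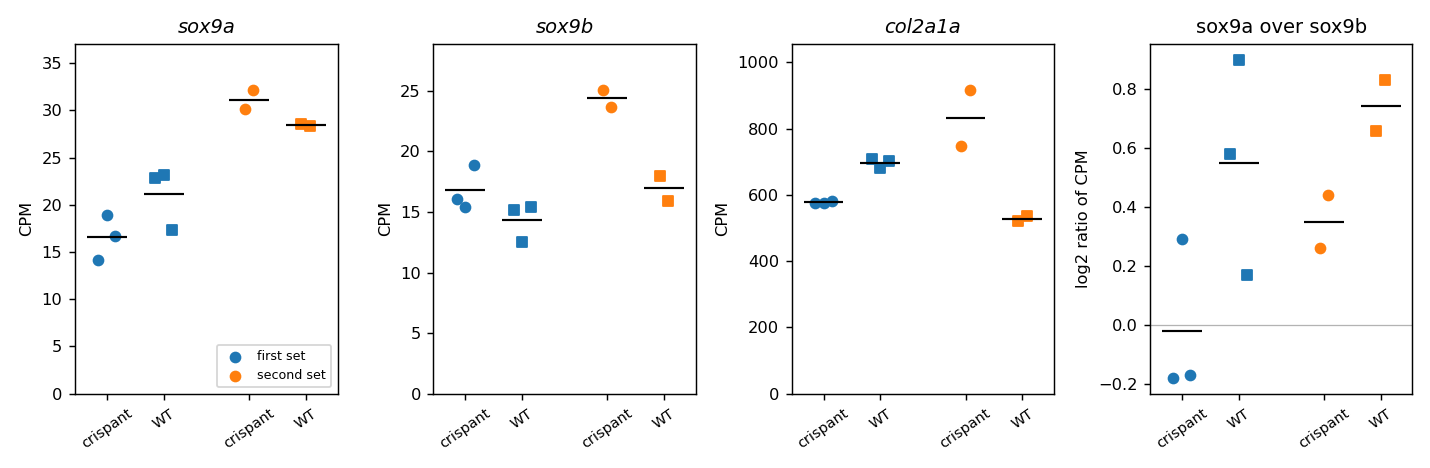
CPM of sox9a, sox9b and col2a1a, and the log2 ratio of sox9a to sox9b, in each crispant (circles) and WT (squares) library of the first set (blue) and the second set (orange), with a line at the mean. In the col2a1a panel the first-set crispants (577, 576 and 582 CPM) lie below their WT and the second-set crispants (749 and 918 CPM) above theirs.

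With both sets pooled, 0 of the 3 genes were called between crispants and WT (adjusted p under 0.05 and absolute log2 fold change above 0.3 by edgeR), 1 had an unadjusted p under 0.05 and DESeq2 called 0. Of all genes tested, 0.168% were called. When the model also held a term for the set, 5.18% of all genes were called and again 0 of the 3, with 0.35 for sox9b (SE 0.10, adjusted p = 0.0579, edgeR), -0.15 for sox9a (adjusted p = 0.465) and 0.10 for col2a1a (adjusted p = 0.695). Without that term, the log2 fold changes were -0.10 for sox9a (SE 0.23, adjusted p = 0.921, edgeR), 0.37 for sox9b (SE 0.16, adjusted p = 0.399) and 0.11 for col2a1a (SE 0.15, adjusted p = 0.848). The genes of the 5 cartilage lists gave 0 calls in 54 tests by edgeR, with 5 at an unadjusted p under 0.05 and 1 called by DESeq2.

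The change of col2a1a in crispants differed between the sets. Of the 3 genes, 1 was called for this difference by an interaction term in edgeR, where 15% of all genes tested were called. The log2 fold change of col2a1a was higher in the second set than in the first by 0.93 (SE 0.10, adjusted p = 1.98e-06, edgeR). For sox9a the difference was 0.48 (SE 0.18, adjusted p = 0.0763), called at 0.60 without WT library 3, which had the lowest sox9a of WT, and at 0.59 without 1 of the first-set crispants. For sox9b it was 0.29 (SE 0.18, adjusted p = 0.299). The fit without WT library 3 called 4579 of 23469 genes for the difference between the sets.

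Within the first set, 0 of the 3 genes passed both thresholds of edgeR, against 22.1% of the genes tested there. col2a1a had a log2 fold change of -0.25 (SE 0.05, adjusted p = 0.00124, edgeR), short of the fold threshold alone, sox9a had -0.33 (SE 0.12, adjusted p = 0.0536) and sox9b had 0.25 (SE 0.12, adjusted p = 0.129). In that set the unadjusted p was under 0.05 for all 3 genes, and the share of all genes at that level is not given here. At an adjusted p under 0.05, whatever the fold change, col2a1a alone of the 3 passed, as did 6402 of 23302 genes tested there. Within the second set, 2 of 3 were called higher, against 1.13% of the genes tested there. col2a1a had a log2 fold change of 0.66 (SE 0.09, adjusted p = 0.00186, edgeR), sox9b had 0.53 (SE 0.11, adjusted p = 0.0298) and sox9a had 0.14 (SE 0.10, adjusted p = 0.58), with 2 libraries in each group.

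The cartilage collagens differed between the sets in the same direction as col2a1a, by 0.56 to 1.81 on the log2 scale. In the first set 4 of 9 were called lower in crispants and none higher by edgeR (median log2 fold change -0.36), in the second 8 of 9 were called higher and none lower (median 0.66), and 8 of 9 differed between the sets by the interaction term. COL11A1 had a log2 fold change of -0.44 in the first and of 0.66 in the second set (adjusted p of the difference 1.42e-07, edgeR), and COL9A2 had -0.04 and 0.70 (adjusted p = 4.69e-05). Of the matrix genes, 4 of 18 were called lower in the first set, 6 higher in the second and 9 for the difference. Of all genes tested, 22.1% were called in the first set in either direction, 1.13% higher in the second and 15% for the difference. The share called lower alone in the first set is not given here, so nothing is read from the counts of lower genes in that set. MATN4 had -0.28 in the first and 0.50 in the second set (adjusted p of the difference 5.79e-06, edgeR). Of the SoxE and SoxD genes, SOX6 was called lower in the first set (-0.49) and had 0.12 in the second (adjusted p of the difference 0.000448, edgeR).

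**Figure D5:**
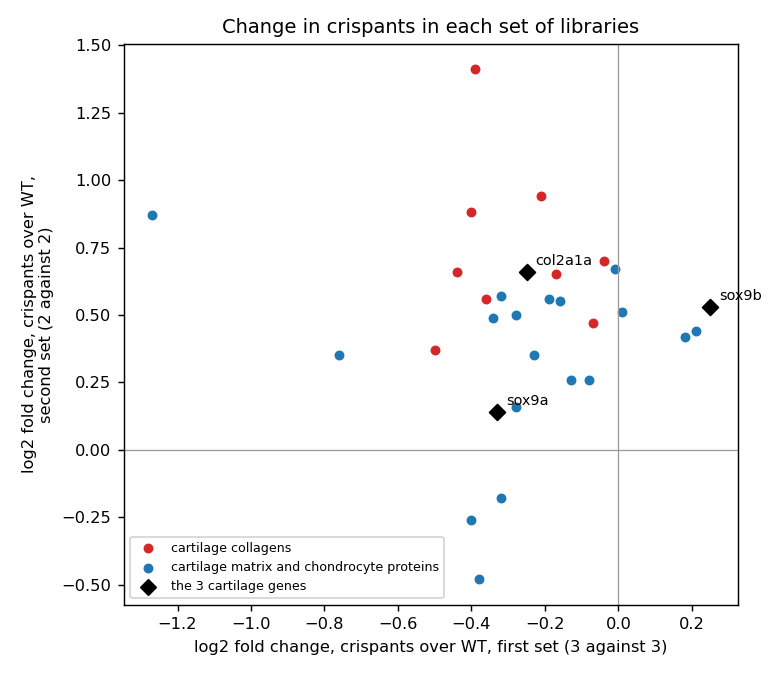
Log2 fold change of crispants over WT for the first set (x axis, 3 against 3 libraries) and the second set (y axis, 2 against 2 libraries) for the 3 cartilage genes (black diamonds), the cartilage collagens (red) and the cartilage matrix genes (blue). col2a1a (-0.25 and 0.66) lies in the upper left with the collagens, whose medians are -0.36 and 0.66.

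The collagen chaperone SERPINH1 (ENSDARG00000019949) had the opposite order of sets, with a log2 fold change of 2.95 (first set) and 0.50 (second set), adjusted p of the difference 1.37e-09 in edgeR. The cartilage markers, all of them genes of the collagen and matrix lists, summed to 325 to 337 CPM in first-set crispants and 372 to 405 CPM in first-set WT. In the second set they summed to 373 to 424 CPM in crispants and 272 to 281 CPM in WT. Notochord markers summed to 96.0 to 102 CPM in first-set crispants and 104 to 107 CPM in first-set WT, and to 95.3 to 98.6 CPM in second-set crispants and 81.9 to 83.0 CPM in second-set WT. CAV1 alone averaged 73 CPM over all crispants and 74.5 CPM over all WT. Osteoblast markers summed to 1822 to 1831 CPM in first-set crispants and 1894 to 2131 CPM in first-set WT, and to 1848 to 2306 CPM in second-set crispants and 1403 to 1512 CPM in second-set WT. What sets the 2 sets apart, and the part of these tissues in the difference, was not tested.

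The ratio of sox9a to sox9b was lower in crispants than in WT when both sets were pooled. The log2 ratio was -0.18, 0.29 and -0.17 in first-set crispants and 0.26 and 0.44 in second-set crispants, against 0.58, 0.90 and 0.17 in first-set WT and 0.66 and 0.83 in second-set WT. The means were 0.13 ± 0.29 in crispants and 0.63 ± 0.28 in WT (SD, n = 5 each), a difference of -0.50 with an exact two-sided permutation p of 0.0317 (smallest possible 0.00794, 252 permutations). That test exchanged labels freely across both sets, and exchanging them only within each set gave an exact two-sided permutation p of 0.0333 (smallest possible 0.0167, 120 permutations). The difference was -0.57 within the first set, where WT library 3 overlapped the crispants, and -0.39 within the second, where the groups did not overlap. Leaving out 1 library in turn gave -0.61 to -0.42, and the exact p was over 0.05 in 6 of those 10 cases. These p-values are for 1 ratio and were not adjusted for other tests. How often ratios of other genes differ this much was not tested.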

How the data were processed

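RNA-seq counts of 25 whole-larva libraries were analysed. According to the labels and methods, adapters were removed by Trim Galore, alignment to GRCz11 was done by STAR 2.7.8 and counting by HTSeq 0.13.5, and the authors deposited raw counts per gene in 2 tables. The counting options, use of strand among them, and the annotation release are not given in the sources used here. 0 columns of per-sample values were left unused. Counts were filtered with filterByExpr, scaled by TMM and tested with the edgeR 4.0.16 quasi-likelihood test in R 4.3.3, with Benjamini-Hochberg adjustment over all genes tested and a threshold of 0.05. Crispants against WT also required an absolute log2 fold change above 0.3. Counts at an unadjusted p under 0.05 stand without the share of all genes at that level, so nothing is read from them. The 5 days entered 1 model for D7 against D3 and for neighbouring days, and 2-class fits for each day against the others. The sox9a to sox9b ratio was tested by an exact two-sided permutation over libraries, on log2 CPM with a prior count of 2.

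Depth per library is given with the results. All pairs of libraries within a group differed by more than counting noise (smallest ratio of observed to counting variance 4.41). Symbols were found for 29201 of 32520 identifiers. Where a listed symbol was found only as a human symbol, every gene with it was counted in the list, sox9a, sox9b and col2a1a aside. No gene coordinates or sequences are printed, since the gene table given is of another build. On simulated data, genes changed by a log2 value of 2 were recovered in 62% of cases for D7 against D3 and in 97% for crispants against WT. Alternatives were DESeq2 1.42.0, RLE scaling, no filter, a minimum of 10 counts in every library, libraries a and b alone, each set alone, a block for the set, a block for the replicate letter, and leaving out each library. The interaction alternatives, the five-group model with the block and the permutation within sets were added after seeing the data. Letters a to c stand for the replicate numbers of the labels. Same-letter libraries of D7 and D3 deviated together (r = 0.452, 0.269 and 0.496 for a, b and c), as did 29 of the 30 same-letter pairs of all days at r over 0.1. The mean r between different letters was -0.173. Deviations from a day mean cancel out within the day, so that value is negative in part by construction and is no separate baseline. Of 15 libraries, 9 were most alike to a library of their own letter. The blocked value is given where it changes a call.

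The 3 genes, the 5 cartilage lists and the marker lists were chosen with earlier results of these data known. The 3 genes are named with every library. From each list, examples are those with the highest mean CPM over the DEX libraries (all 6 for SoxE and SoxD genes). The genes most alike are the 5 with the highest Pearson correlation of log2 CPM among those with a mean of at least 5 CPM and a symbol, and 1 of those of sox9a is not reported here.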

Additional observations from a re-analysis of the deposited data

Results flagged for a closer look

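The log2 fold change of col2a1a, crispants over WT, was not the same in both sets of libraries, with a difference of 0.93 (interaction term of edgeR, adjusted p under 0.05), and the same held for 15 of 22 genes named from the lists. Of all genes tested, 15% were called by that term. These lists were chosen with earlier results of these data known. Among the collagens the difference, second set minus first set, was 1.17 for col9a3, 1.11 for COL11A1, 0.75 for COL9A2 and 0.56 for COL2A1 (ENSDARG00000011407). Among matrix genes it was 0.85 for hapln1a, 0.80 for MATN4, 0.76 for MATN1 and 0.60 for epyc. It was 0.63 for SOX6 and 0.40 for sox13, and 0.90 for COL10A1 (ENSDARG00000054753), 0.50 for MEF2C (ENSDARG00000029764) and 0.52 for MEF2C (ENSDARG00000009418). SEC24D had a difference of 0.76, lost without 1 of the second-set crispants (0.61), and SERPINH1 (ENSDARG00000019949) had -2.44. The sox13 call was lost in 8 of 10 fits that left out 1 library.

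In 52 groups of 5 libraries, 3 held a library far from the other 4. The cutoff is meant to flag about 1 in 20 groups of independent values with a single normal spread. These groups pool both sets and share their libraries, so that rate need not hold here. MATN1 was at 124 CPM in 1 second-set crispant library against 139 to 142 CPM in the other crispants, and hapln1a was at 34.0 CPM in the same library against 44.8 to 48.7 CPM. MEF2C (ENSDARG00000009418) was at 47.7 CPM in WT library 5, against 55.6 to 57.8 CPM in the other WT libraries.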

How the results depend on the processing

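For D7 against D3, col2a1a and sox9a kept their direction and their call under all 21 alternatives (adjusted p at most 0.00816 and 0.0487 in edgeR or DESeq2), and 8 or 9 of 9 collagens were called lower in each. The adjusted p of sox9b ran from 0.000176 to 0.298. With the replicate letter as a block, sox9b was called (-0.76, adjusted p = 0.0049, edgeR), 5 SoxE and SoxD genes were called lower (3 without it) and 7930 genes of the table were called (5493 without it), and among the genes named in the tests of D7 against D3, of neighbouring days, of each day and of the trend it changed no calls but those given with the results. No pairing by replicate number was fitted for crispants against WT, since the crispant columns carry no usable number, and the set of libraries as a block called 1357 genes there at an adjusted p under 0.05 alone, DESeq2 532, and leaving out 1 library 9 to 157 (39 in the full edgeR fit). Libraries a and b alone called 11048 genes for D7 against D3, with 13 matrix genes (8 in all libraries) and 7 hypertrophy genes (4), and 3 calls between neighbouring days (0). Each day against the others gave 4 calls of the 3 genes in the five-group model, 6 with the block added, 2 with DESeq2 and 0 to 2 when 1 library was left out (0 in all libraries). The interaction called 2 of the 3 genes with no filter and 1 to 2 when 1 library was left out (1 in all libraries), and the second set alone called 2 for crispants against WT (0 pooled). For the lists, the interaction called 2 collagen processing genes with DESeq2 (1 with edgeR), and leaving out 1 library gave 0 to 2 of them, 3 to 5 hypertrophy genes (3) and 1 to 3 SoxE and SoxD genes (2). The D7 against D3 count of hypertrophy genes ran from 2 to 5 in such fits. Of the 5 genes most alike, Spearman's correlation kept 3 for col2a1a, 0 for sox9a and 1 for sox9b, and libraries a and b kept 3, 0 and 0. The sox9a to sox9b difference ran from -0.61 to -0.42.

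Directions turned only for small changes that were not called in the full data. For D5 against the others, col2a1a was -0.38 (SE 0.92) in the 2-class fit and 0.34 (SE 0.44) in the five-group model. In crispants against WT, col2a1a (0.11) was -0.25 in the first set alone and -0.02 to 0.17 with 1 library left out, and sox9a (-0.10) was 0.14 in the second set and -0.27 to 0.03. With 1 library left out, col2a1a for D4 against D3 ran from -0.94 to 0.20, and sox9b ran from -0.33 to 0.12 for D4 against D3, -0.14 to 0.31 for D5 against D4, -0.14 to 0.31 for D4 against the others and -0.31 to 0.12 for D6 against the others (0.02 at a minimum of 10 counts). For D7 against D3, MEF2C (ENSDARG00000029764) ran from -0.65 to 0.02 and sec23a from -0.27 to 0.09 (0.01 at a minimum of 10 counts). For the interaction, sec23a ran from -0.02 to 0.11 and SOX8 (ENSDARG00000105301) from -0.06 to 0.67. No vehicle libraries, 2 libraries per group in the second set and the high spread between DEX libraries limit these results.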
